A study of Mus musculus with 12 samples.

Results

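The accessibility of chromatin at 42 extracellular matrix genes was followed in mouse fat with and without BAF60a, the product of Smarcd1, which belongs to the nucleosome-remodeling machinery known as SWI/SNF. The members were all peaks of both ATAC-seq tables whose assigned gene symbol is 1 of these 42 genes, which gave 267 of 58558 peaks in brown fat (BAT) and 216 of 39558 peaks in inguinal white fat (iWAT), with 39 of the 42 genes holding a peak in each tissue. ATAC-seq inserts adapters into open DNA with a transposase, so that reads at a site reflect its accessibility. Flox mice carry BAF60a flox/flox alleles, and AKO mice carry the same alleles with Adiponectin-Cre, a transgene that is active in adipocytes and spares the other cells of the tissue, all on a C57BL/6 background. Brown fat came from 3 flox and 3 AKO mice, 1 mouse per sample, whose age and housing temperature are not given for these samples in the sources used here. Inguinal fat came from mice of 6 to 8 months that had spent 7 days at 10 °C, and its 3 samples per genotype are aliquots of 1 pool of 6 mice, so that their spread is technical and a difference between the pools cannot be told apart from one of genotype.

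The extracellular matrix of adipose tissue is a mesh of secreted proteins that carries load and anchors cells. Fibrillar collagens form the tensile cables of the interstitium, collagen VI forms beaded filaments around adipocytes, and each adipocyte is wrapped in a basement membrane of collagen IV, laminins, nidogens and perlecan. Elastic fibres consist of an elastin core on fibrillin microfibrils, lysyl oxidases crosslink elastin and collagen, and matrix metalloproteinases with their tissue inhibitors govern turnover. Fibroblasts, progenitors and mural cells secrete much of the interstitial matrix, while adipocytes and endothelial cells build basement membranes.

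The sequences of 5 sites are printed because the results below turn on them: 1 brown fat and 3 inguinal peaks that passed the threshold in a count test, and the site with the widest opposite differences in both tissues. Each is the central part of the peak, at most 300 bases of the plus strand of mm10 (GRCm38.p6 sequence from RefSeq), with capitals for matches to any of 7 motif words described further on. They are the Col1a2 site at chr6:4463199-4463498 and the Col15a1 site at chr4:47151815-47152114 from the brown fat table, and the Eln site at chr5:134763387-134763686, the Fbln2 site at chr6:91285423-91285704 and the Col18a1 site at chr10:77128005-77128304 from the inguinal table.
Col1a2: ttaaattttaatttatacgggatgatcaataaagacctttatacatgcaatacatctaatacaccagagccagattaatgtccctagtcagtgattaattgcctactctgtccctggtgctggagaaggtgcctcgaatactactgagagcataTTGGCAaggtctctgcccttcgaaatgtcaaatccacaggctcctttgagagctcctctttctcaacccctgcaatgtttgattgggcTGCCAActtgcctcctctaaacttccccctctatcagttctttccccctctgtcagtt
Col15a1: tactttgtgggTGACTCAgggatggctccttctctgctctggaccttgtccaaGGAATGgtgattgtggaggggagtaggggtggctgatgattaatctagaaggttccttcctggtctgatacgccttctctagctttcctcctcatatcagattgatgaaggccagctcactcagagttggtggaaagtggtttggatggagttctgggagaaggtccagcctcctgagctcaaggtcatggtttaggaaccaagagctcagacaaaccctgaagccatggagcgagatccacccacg
Eln: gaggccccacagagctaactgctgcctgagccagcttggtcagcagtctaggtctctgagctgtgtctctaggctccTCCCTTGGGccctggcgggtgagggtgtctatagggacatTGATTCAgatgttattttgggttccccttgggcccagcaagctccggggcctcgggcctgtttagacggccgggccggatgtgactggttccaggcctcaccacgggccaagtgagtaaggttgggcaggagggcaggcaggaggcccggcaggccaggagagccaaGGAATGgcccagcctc
Fbln2: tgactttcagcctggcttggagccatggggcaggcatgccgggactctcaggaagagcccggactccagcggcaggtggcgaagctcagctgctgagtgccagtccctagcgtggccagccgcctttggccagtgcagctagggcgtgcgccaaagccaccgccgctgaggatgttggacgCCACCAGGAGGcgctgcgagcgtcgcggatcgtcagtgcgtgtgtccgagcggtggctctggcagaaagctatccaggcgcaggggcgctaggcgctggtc
Col18a1: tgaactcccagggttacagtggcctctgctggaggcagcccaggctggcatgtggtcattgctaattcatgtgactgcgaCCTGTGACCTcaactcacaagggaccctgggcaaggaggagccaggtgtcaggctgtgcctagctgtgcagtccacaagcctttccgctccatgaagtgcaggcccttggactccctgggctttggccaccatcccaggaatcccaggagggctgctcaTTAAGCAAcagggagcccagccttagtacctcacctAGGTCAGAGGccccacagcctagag
The Eln site lies in intron 1 of the noncoding gene Gm30003, the Col18a1 site lies in intron 2 of the longest Col18a1 transcript and upstream of the start of the shorter ones, and the other 3 sites lie outside annotated genes. The capitals mark a pair of NF1 half-sites in the Col1a2 site, an AP-1 and a TEAD word in the Col15a1 site, an EBF, an AP-1 and a TEAD word in the Eln site, the CTCF core in the Fbln2 site, and a pair of PPAR-RXR words with a C/EBP word in the Col18a1 site.

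Values are normalized reads (read numbers per peak after scaling by each sample's size factor), and each log2 fold change below is AKO over flox as fitted by limma on log2(normalized reads + 1). The deposited depth was 6336670 to 27500738 reads in peaks in brown fat and 4066720 to 6691161 in iWAT. The first principal component (PC1) of the brown fat samples, which the authors used as a covariate, held 55.6% of the variance and ran from -98.2 in the deepest library (flox replicate 1) to 112 in the shallowest (AKO replicate 2). The other scores were -41.8 and 14.6 in flox and -0.62 and 13.5 in AKO samples, so that PC1 was tied in part to genotype as well. A fit with PC1 can therefore take up part of a genotype difference in brown fat. In bulk tissue, fewer cells of a type and less signal per cell cannot be told apart. As a check of the labels, the peak in intron 4 of Smarcd1 held 136, 201 and 185 normalized reads in the flox mice of the brown fat table and 23.7, 57.9 and 26.9 in its AKO mice, with a log2 fold change of -2.98 (limma adjusted p = 0.269). The count tests DESeq2 (adjusted p = 4.04e-11) and edgeR (adjusted p = 0.00169) called this peak lower. The inguinal table assigns to Smarcd1 only the peak at its start site, which held 249, 188 and 211 normalized reads in flox and 233, 229 and 230 in AKO samples and does not check the labels there.

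The number of sites differed widely between the genes. In brown fat, Timp3, a secreted inhibitor of metalloproteinases, held 20 peaks, Sparc, a collagen-binding glycoprotein, held 16, and Col4a2 and Col6a3 held 15 each. In iWAT, Col5a1 held 15, Col6a3 held 13, and Col4a2 and Sparc held 12 each. No peak was assigned to Lum or Loxl2 in either table, to Mfap5 in brown fat or to Fn1 in iWAT. Most sites lay away from promoters, with a median distance to the start site of the assigned gene of 29.6 kb in brown fat and 22.5 kb in iWAT, against 15.8 and 11.8 kb over all peaks. Of the brown fat peaks, 30 (11.2%) lay within 1 kb of the start site, compared with 21.6% of all peaks, and of the inguinal peaks 34 (15.7%), compared with 30% of all peaks. A peak was assigned to the nearest start site, so that a peak need not lie in its gene: 131 of the 267 brown fat peaks lay inside the assigned gene, 47 inside another gene and 89 outside genes.

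In brown fat, no matrix gene peak passed the adjusted threshold of 0.1 in limma in either direction, as was so for all 58558 peaks (0.0% of them). At an unadjusted p below 0.05, 12 matrix peaks were lower and 5 higher in AKO, against a background of 5.59% and 3.46% of all peaks. DESeq2 on the recovered reads called 1 matrix peak lower and 0 higher, where it called 0.217% and 0.0803% of all peaks, and edgeR called 0 in either direction, where it called 0.114% and 0.029%. The AKO samples lay entirely below the flox samples at 41 of the 267 matrix peaks (15.4%; background 8.84%) and entirely above them at 26 (9.74%; background 8.77%). Scaled to total reads in peaks, these counts became 34 and 31, with backgrounds of 6.73% and 10.3%. Of the 267 matrix peaks, 144 had a negative log2 fold change, where 49.1% of all peaks did, and their median was -0.03, compared with 0.01 over all peaks, and 0.01 compared with -0.01 without the PC1 covariate. Without PC1, DESeq2 called 1 matrix peak lower and 1 higher, against 0.517% and 0.512% of all peaks.

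The role groups divided these separated peaks unevenly in brown fat. Among the 98 peaks of the 12 basement membrane genes, 19 (19.4%) had every AKO sample below every flox sample and 5 (5.10%) the reverse, and among the 52 peaks of the fibrillar collagens and the collagens bound to fibrils the counts were 11 (21.2%) and 5 (9.62%), where all peaks gave 8.84% and 8.77%. Collagen VI had 3 and 1 of 25 peaks, and the genes of crosslinking and turnover had 6 and 5 of 34. The elastic fibre genes had more separated peaks above, with 1 below and 6 above of 32 peaks, and the glycoproteins and proteoglycans had 1 below and 4 above of 26. With total reads in peaks as the scale the counts were 16 and 6 for the basement membrane, 8 and 6 for the fibrillar collagens, 1 and 7 for the elastic fibres and 4 and 7 for crosslinking and turnover. These counts grow by construction when a sample is left out, but not evenly: without flox replicate 3 the basement membrane had 28 below and 16 above, the fibrillar collagens 12 and 11, collagen VI 4 and 5, and the elastic fibres 4 and 13, and without AKO replicate 1 the basement membrane had 23 and 15. Over all 58558 peaks, 9880 lay below and 11592 above without flox replicate 3, and 8940 and 8846 without AKO replicate 1. With all samples these were 5175 and 5134. The imbalance of the groups thus varied with the samples used, and the counts of all peaks moved as well. With PC1 the group medians ran from -0.14 for collagen VI to 0.09 for the glycoproteins, and without it from -0.07 to 0.25, the latter for the elastic fibres, whose median was 0.03 with PC1. Those of the fibrillar collagens (-0.08 with and 0.01 without PC1) and of crosslinking (0.00 and -0.07) changed sign without the covariate, and that of the fibrillar collagens was also positive without flox replicate 3.

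**Figure D1:**
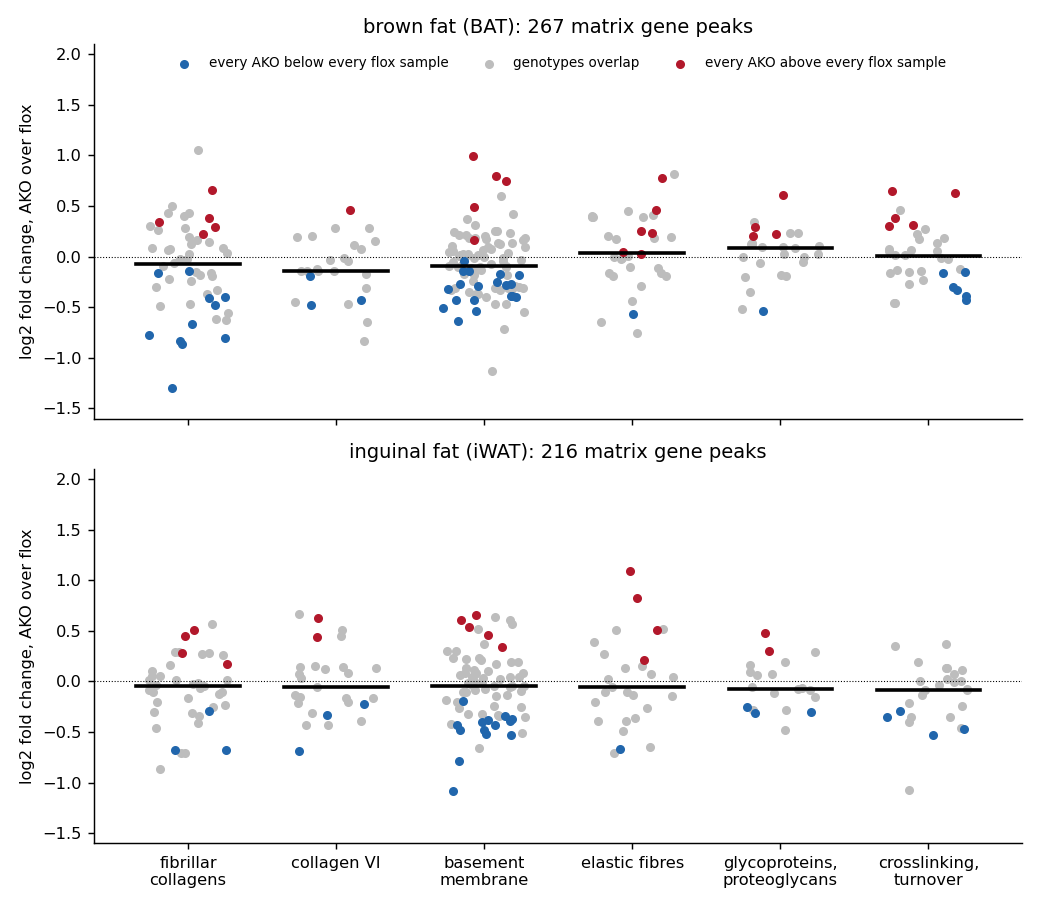
Log2 fold change (AKO over flox, limma) of every matrix gene peak by role group, in brown fat (top) and inguinal fat (bottom); each point is 1 peak, blue where every AKO sample lay below every flox sample, red where every AKO sample lay above, grey where the genotypes overlapped, and the bars are medians. The medians lie between -0.14 and 0.09, and the highest point of the inguinal panel is the Eln site at 1.09.

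**Figure D2:**
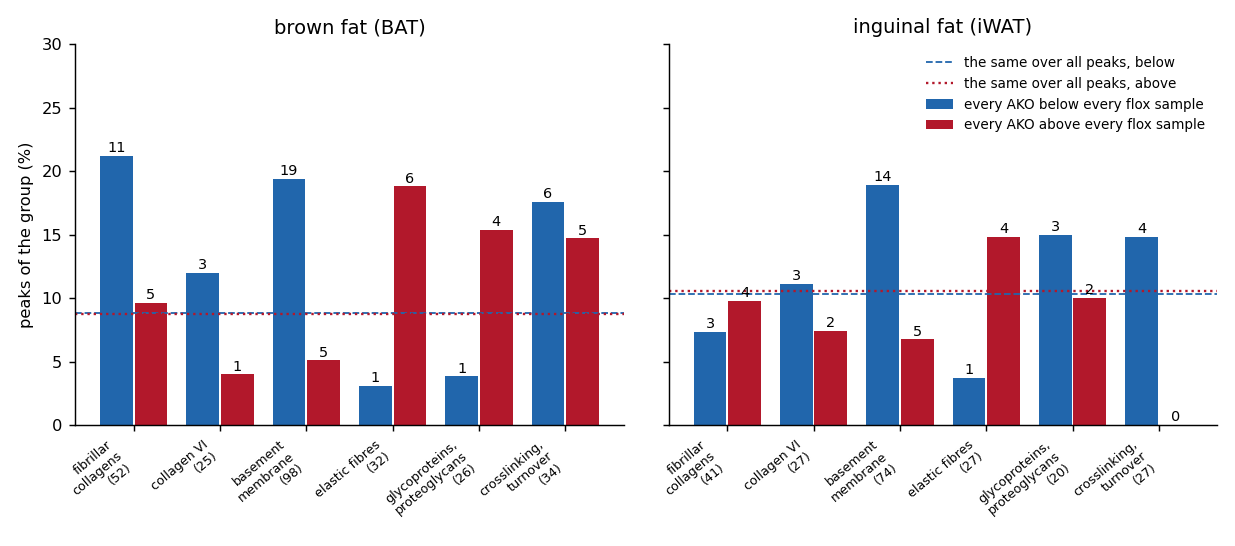
Share of the peaks of each role group (%, number of peaks in the group under its name, number of separated peaks above each bar) at which every AKO sample lay below (blue) or above (red) every flox sample; the lines give the same shares over all peaks of the table. In brown fat 19 of 98 basement membrane peaks lay below, and 6 of 32 elastic fibre peaks above.

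The matrix peak with the smallest p in brown fat lay far upstream of Col1a2, which encodes the second chain of collagen I, at -42.1 kb from its start site (chr6:4463171-4463527, where negative distances are upstream). It held 127, 175 and 138 normalized reads in flox samples and 62.9, 83.1 and 60.4 in AKO samples, so that the genotypes did not overlap. Its log2 fold change was -1.30 ± 0.23 (SE, n = 3 per genotype; limma adjusted p = 0.417), and DESeq2 called it lower with an adjusted p of 0.0298, while edgeR gave an adjusted p of 0.103. With DESeq2 and each sample left out in turn it passed only without AKO replicate 2 (adjusted p = 0.0896), and no adjusted p was given in 3 of the 6 fits. A neighbouring site at -39.8 kb held 132, 185 and 198 normalized reads in flox and 130, 77.3 and 79.6 in AKO samples, again without overlap, and its log2 fold change was -0.86 (limma adjusted p = 0.537). With PC1 in the fit all 6 Col1a2 peaks had negative values, the start-site peak among them at -0.24, but without PC1 that peak was at 0.23, and it held 178, 204 and 239 normalized reads in flox and 227, 350 and 177 in AKO samples.

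The neighbouring genes Col3a1 and Col5a2, which encode collagens III and V of the same fibrils, showed several lower sites in brown fat. The Col5a2 site at -38.8 kb (chr1:45541976-45542271) held 66.9, 71.7 and 76.3 normalized reads in flox samples and 51.5, 38.6 and 34.5 in AKO samples, with a log2 fold change of -0.78 ± 0.24 (SE; limma adjusted p = 0.482). The site assigned to Col3a1 at 70.5 kb, which lies in intron 50 of Col5a2, held 70.5, 70.9 and 69.9 in flox and 47.4, 48.3 and 52.8 in AKO samples, with a log2 fold change of -0.48. Neither pair of groups overlapped, and 4 of 9 Col5a2 peaks had every AKO sample below every flox sample, where 8.84% of all peaks did. Col12a1, whose product binds the surface of collagen fibrils, had a site in intron 2 (5.26 kb) with 82.0, 73.9 and 95.7 normalized reads in flox and 39.2, 61.8 and 69.1 in AKO samples (-0.80, limma adjusted p = 0.521), also without overlap. Col5a3 differed in the other direction: 2 of its 4 peaks had every AKO sample above every flox sample, where 8.77% of all peaks did. The one at its start site held 68.5, 69.5 and 54.3 normalized reads in flox and 75.3, 98.5 and 122 in AKO samples (0.66, limma adjusted p = 0.555).

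Of the basement membrane genes in brown fat, Col4a2, Lamb1 and Hspg2 had the most separated peaks that were lower in AKO, 4 each of 15, 10 and 10. Over all peaks the share was 8.84% below and 8.77% above. Col4a2 also had 1 peak above, and Col18a1 (12 peaks) and Col15a1 (7 peaks) had 0 below, with 1 and 2 above. Hspg2 encodes perlecan, the large proteoglycan of basement membranes, and 9 of its 10 peaks had a negative log2 fold change. Its site in intron 1 at 26.02 kb (chr4:137494693-137494956) held 75.2, 111 and 106 normalized reads in flox samples and 47.4, 86.9 and 55.6 in AKO samples, and the groups overlapped through AKO replicate 2. The log2 fold change there was -1.13 ± 0.21 (SE; limma adjusted p = 0.417; DESeq2 adjusted p = 0.190), and -0.64 without PC1. The start-site peak of Hspg2 held 725, 854 and 710 normalized reads in flox and 611, 664 and 646 in AKO samples, a log2 fold change of -0.28 without overlap.

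Lama4 encodes the laminin α4 chain of adipocyte and vascular basement membranes. A broad site in its first intron, at 3.72 kb, held 681, 732 and 745 normalized reads in flox samples and 544, 375 and 517 in AKO samples, which did not overlap (log2 fold change -0.43 ± 0.22, SE; limma adjusted p = 0.607). The start-site peak of Lama4 held 405, 378 and 397 in flox and 369, 270 and 391 in AKO samples, and the genotypes overlapped there. Lamc1, encoding the laminin γ1 chain, had a site at 31.5 kb with 47.5, 79.8 and 114 normalized reads in flox and 71.1, 114 and 57.6 in AKO samples. The groups overlapped fully, and its log2 fold change of -0.72 with PC1 (limma adjusted p = 0.482) was 0.04 without it, so that the value rests on the covariate.

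Col15a1, a collagen that links basement membranes to fibrils, had the highest log2 fold change of the basement membrane genes in brown fat. A narrow peak at 0.49 kb from its start held 8.36, 8.13 and 6.47 normalized reads in flox and 14.4, 27.0 and 17.3 in AKO samples (log2 fold change 0.997 ± 0.299, SE; limma adjusted p = 0.478), and the site printed above at -56.2 kb held 29.8, 48.0 and 34.9 in flox and 71.1, 67.6 and 60.4 in AKO samples (0.75, limma adjusted p = 0.513). Every AKO sample lay above every flox sample at both. The first of these rests on few reads. Among the elastic fibre genes, Fbln5, which encodes the elastin-binding fibulin-5, had a site in intron 4 (17.3 kb) with 62.7, 55.4 and 32.3 normalized reads in flox and 64.9, 75.3 and 71.0 in AKO samples, barely separated (0.78, limma adjusted p = 0.535).

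Genes of turnover and crosslinking differed in both directions in brown fat. At the start site of Timp3, in its 5′ UTR, flox samples held 107, 96.1 and 78.9 normalized reads and AKO samples 131, 153 and 137, without overlap (log2 fold change 0.65 ± 0.22, SE; limma adjusted p = 0.500). Both peaks of Timp2, a related inhibitor, had every AKO sample above every flox sample, where 8.77% of all peaks did. The one at -7.50 kb held 41.8, 74.6 and 76.3 in flox and 108, 166 and 138 in AKO samples (0.63 with PC1, limma adjusted p = 0.531). Without PC1 DESeq2 called this Timp2 site higher, with a log2 fold change of 1.11 and an adjusted p of 0.0596. Loxl1 encodes a lysyl oxidase that acts on elastin, and 2 of its 6 peaks had every AKO sample below every flox sample (8.84% of all peaks). Its start-site peak held 967, 783 and 722 normalized reads in flox and 476, 448 and 663 in AKO samples, and its intron 1 site at 2.30 kb held 621, 508 and 439 in flox and 314, 386 and 384 in AKO samples. Neither site passed the adjusted threshold in limma (adjusted p of 0.653 and 0.633), DESeq2 or edgeR.

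**Figure D3:**
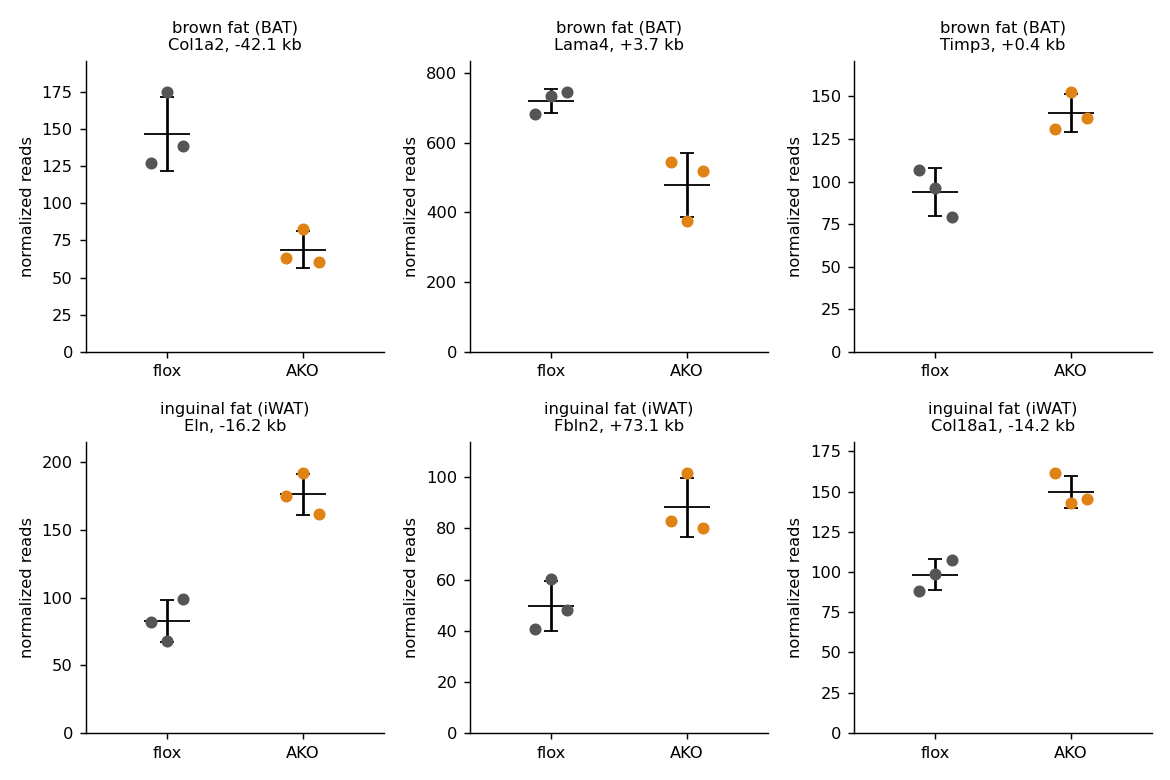
Normalized reads per sample (linear axes from 0) at 6 matrix gene peaks, 3 in brown fat (top) and 3 in inguinal fat (bottom); points are samples, bars the mean ± SD (n = 3 per genotype), and distances are from the start site. At the Col1a2 site all AKO samples lie at or below 83.1 and all flox samples at or above 127, and at the Eln site all AKO samples lie at or above 161 and all flox samples at or below 99.0.

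At the 30 start-site peaks of matrix genes in brown fat, 8 had every AKO sample above every flox sample and 3 every AKO sample below, where all 12630 start-site peaks of the table gave 10% above and 6.06% below. Without flox replicate 3 the counts were 17 above and 3 below, and without AKO replicate 1 13 and 4. Over all 58558 peaks at any distance these fits had 11592 above and 9880 below, and 8846 and 8940, compared with 5134 and 5175 with all samples. The shares of all start-site peaks were not counted with a sample left out. With all samples, the 8 peaks above belonged to Col15a1, Col5a3, Col6a3, Eln, Fbn1, Mmp2, Timp2 and Timp3, and the 3 below to Hspg2, Lamc1 and Loxl1. The covariate weighed heavily on the 30 start-site peaks of matrix genes, whose median log2 fold change was 0.00 with PC1 and 0.33 without it, while the median of all start-site peaks was 0.11 and -0.05. Fbn1, which encodes the main microfibril protein fibrillin-1, held 165, 155 and 199 normalized reads in flox and 221, 353 and 230 in AKO samples (0.23 with and 0.60 without PC1). Mmp2, which encodes gelatinase A, held 16.2, 36.9 and 66.0 in flox and 67.0, 98.5 and 74.8 in AKO samples (0.32 with and 1.18 without). Eln held 280, 284 and 300 in flox and 308, 386 and 311 in AKO samples (0.04 and 0.21), and Col6a3 held 64.8, 80.5 and 72.4 in flox and 95.9, 81.1 and 109 in AKO samples (0.46 and 0.39). These peaks were separated but narrowly so, and the AKO replicate 2 was the highest sample at Fbn1, Mmp2 and Eln.

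The other start-site peaks named by the rule overlapped between the genotypes in brown fat. That of Fn1, the gene of fibronectin, which also covers an exon of the antisense gene Apol7d, held 57.5, 85.7 and 97.0 normalized reads in flox and 86.6, 193 and 116 in AKO samples, with a log2 fold change of 0.00 with PC1 and 0.67 without. Col1a1 held 109, 102 and 110 in flox and 109, 131 and 105 in AKO samples (-0.03). Sparc held 1047, 811 and 779 in flox and 922, 614 and 743 in AKO samples (0.12 with and -0.22 without PC1), and Lox, encoding the lysyl oxidase of collagen and elastin, held 386, 417 and 504 in flox and 432, 543 and 451 in AKO samples (-0.13 and 0.13). No start-site peak was assigned to Dcn, Col3a1 or Col4a1 in either table. For Col4a1 this reflects the assignment. Its start at chr8:11312826 on the minus strand lies next to that of Col4a2 at chr8:11312805 on the plus strand, and each table assigns 1 start-site peak to Col4a2.

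**Figure D4:**
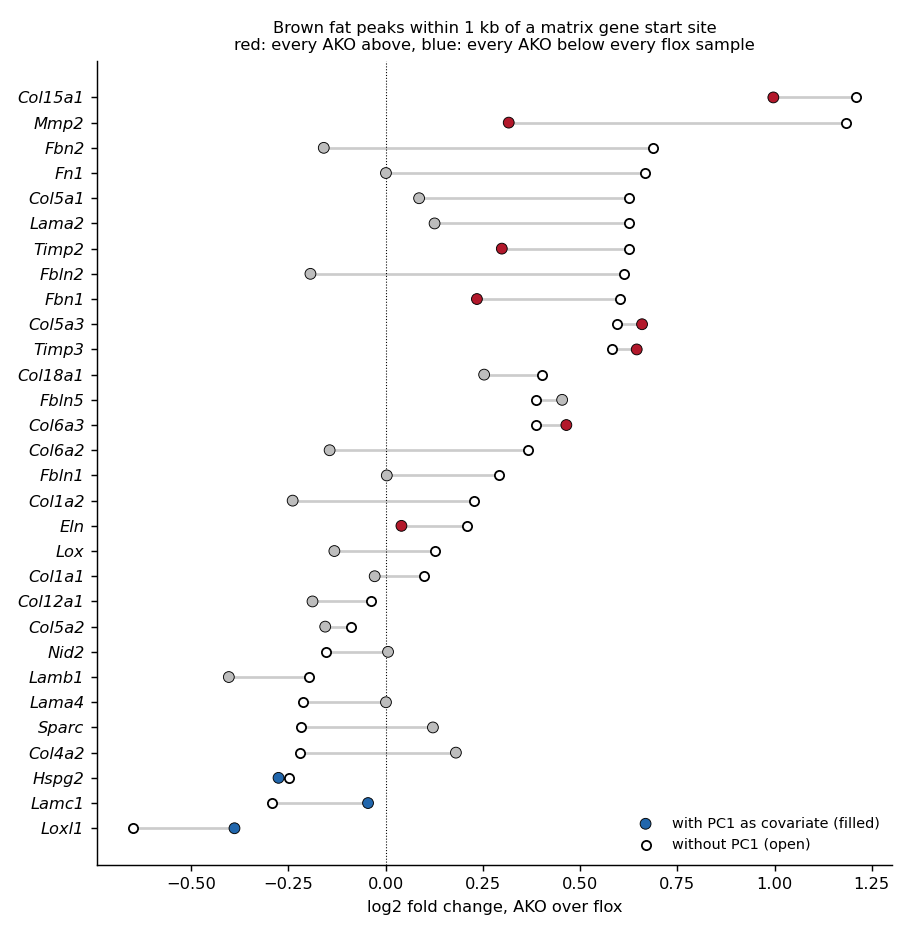
Log2 fold change (AKO over flox) of the 30 brown fat peaks within 1 kb of a matrix gene start site, with PC1 as a covariate (filled) and without it (open), ordered by the value without it; red marks peaks with every AKO sample above every flox sample and blue the reverse. The median is 0.00 with PC1 and 0.33 without.

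The summed signal of adipocyte and brown adipocyte markers differed with genotype in brown fat as well. The 68 peaks of 5 brown adipocyte genes, Ucp1 among them, summed to 20022 to 24006 normalized reads in flox and 13356 to 14882 in AKO samples. Every AKO sample lay below every flox sample at 29 of these peaks and above at 0, where all peaks of the table gave 8.84% and 8.77%. DESeq2 called 6 of the 68, where it called 0.217% of all peaks lower and 0.0803% higher. The 43 peaks of 6 adipocyte genes summed to 19561 to 21174 in flox and 13389 to 18239 in AKO samples, with 18 below and 3 above. The 19 peaks of 6 fibroblast and progenitor genes (Ly6a had no peak) summed to 2334 to 2546 in flox and 2509 to 2750 in AKO samples, with 0 below and 8 above. Mural markers (22 peaks of 6 of 7 genes, Rgs5 without a peak) ran from 2392 to 2791 in flox and 2633 to 2850 in AKO samples, and endothelial markers (28 peaks of 6 genes) from 2448 to 2642 and from 2367 to 2799. The fibroblast, mural and endothelial sums overlapped between the genotypes. So did those of macrophage (1 of 6 genes with a peak), skeletal muscle (2 of 5), Schwann (2 of 3) and mesothelial genes (3 of 3), and Cd68, Csf1r, Itgam, Lyz2 and Ptprc had no peak. The summed signal of the matrix gene peaks was 49321 to 50866 in flox and 45033 to 48768 in AKO samples. The part of these markers in the lower basement membrane peaks and the higher elastic fibre peaks was not tested.

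In iWAT, limma likewise called 0 of the 216 matrix peaks in either direction, as for all 39558 peaks (0.0%), and at an unadjusted p below 0.05 17 were lower and 13 higher, against 7.42% and 7.61% of all peaks. DESeq2 called 3 matrix peaks higher and 0 lower, where it called 0.493% and 0.569% of all peaks. edgeR called 4 higher, at Eln, Fbln2, Col18a1 and Sparc, and 3 lower, at Nid1, Col3a1 and Mmp2, with a background of 2.15% and 2.52%, which the matrix peaks did not exceed. Every AKO sample lay below every flox sample at 28 matrix peaks (13.0%; background 10.3%) and above at 17 (7.87%; background 10.6%). With total reads as the scale these were 26 and 18, with backgrounds of 10.1% and 10.9%. Of the 216 peaks, 122 had a negative log2 fold change, where 50.1% of all peaks did, and their median was -0.06, compared with 0.00 over all peaks. PC1 of the inguinal samples separated the genotypes (scores from -41.4 to -30.9 in flox and from 29.4 to 37.8 in AKO samples), so that a fit with PC1 as a covariate, which turned the median to 0.23 and the values of the Fbln2 and Col18a1 sites described next to -1.31 and -0.60, cannot tell PC1 and genotype apart. By group the counts below and above were 14 and 5 of 74 for the basement membrane, 3 and 4 of 41 for the fibrillar collagens, 3 and 2 of 27 for collagen VI, 1 and 4 of 27 for the elastic fibres, 3 and 2 of 20 for the glycoproteins, and 4 and 0 of 27 for crosslinking and turnover. Without flox replicate 2 the basement membrane had 23 below and 13 above, and without AKO replicate 3 the elastic fibres had 7 and 5. Over all 39558 peaks these fits had 7197 below and 6953 above, and 6197 and 6509, compared with 4069 and 4184 with all samples.

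The Eln site at -16.2 kb (chr5:134763293-134763780) had the highest ratio of AKO to flox of all matrix peaks in iWAT. Eln encodes tropoelastin, the core of the elastic fibre. The site held 82.0, 67.8 and 99.0 normalized reads in flox samples and 175, 192 and 161 in AKO samples, so that the lowest AKO sample lay well above the highest flox sample. The log2 fold change was 1.09 ± 0.17 (SE, n = 3 aliquots per genotype; limma adjusted p = 0.149), and DESeq2 (adjusted p = 6.1e-05) and edgeR (adjusted p = 1.24e-05) both called it. With any 1 sample left out DESeq2 still called it, with adjusted p from 0.000234 to 0.0319. The start-site peak of Eln held 278, 284 and 283 normalized reads in flox and 257, 240 and 289 in AKO samples and overlapped. In brown fat the same site was the brightest of all matrix peaks per kilobase, at the 99.9th percentile of the table, with 1101, 989 and 882 normalized reads in flox and 901, 759 and 1173 in AKO samples, and the genotypes overlapped (0.19 with and -0.09 without PC1).

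Fbln2, encoding fibulin-2 of elastic fibres, had 3 of its 8 inguinal peaks with every AKO sample above every flox sample (10.6% of all peaks). The site at 73.1 kb downstream of its start held 40.6, 60.0 and 48.2 normalized reads in flox and 83.0, 102 and 80.2 in AKO samples, without overlap (0.83 ± 0.18, SE; limma adjusted p = 0.151; DESeq2 adjusted p = 0.0754). The site at -4.78 kb held 78.4, 62.3 and 74.0 in flox and 99.1, 95.9 and 111 in AKO samples (0.51, limma adjusted p = 0.197). With DESeq2 the 73.1 kb site was called in 1 of the 6 fits that left out a sample, that without flox replicate 2 (adjusted p = 0.0447). In brown fat it held 213, 188 and 176 in flox and 151, 174 and 187 in AKO samples, which overlapped.

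The Col18a1 site at -14.2 kb belongs to a gene whose product is a basement membrane collagen and the source of endostatin. It held 88.4, 99.0 and 108 normalized reads in flox and 161, 143 and 145 in AKO samples of iWAT, without overlap (0.61 ± 0.14, SE; limma adjusted p = 0.157; DESeq2 adjusted p = 0.0797). It passed in 0 of the 6 DESeq2 fits with a sample left out, with adjusted p from 0.123 to 0.676. In brown fat this site was the next brightest matrix peak per kilobase after that of Eln, at the 99.4th percentile, with 685, 595 and 614 in flox and 602, 425 and 655 in AKO samples. The genotypes overlapped there.

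The remaining higher peaks of the named rule in iWAT were those of Sparc and Col5a1. The Sparc site in intron 8 (22.4 kb) held 103, 102 and 109 normalized reads in flox and 137, 144 and 159 in AKO samples (0.48, limma adjusted p = 0.186; edgeR adjusted p = 0.0776). The site in intron 9 of Col5a1 (67.7 kb), a gene of a collagen that regulates fibril diameter, held 67.7, 76.7 and 75.7 in flox and 93.4, 119 and 104 in AKO samples (0.51, limma adjusted p = 0.196). Neither overlapped between the genotypes.

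Lower peaks in iWAT were most frequent in the basement membrane genes. Nid1, whose product nidogen-1 bridges laminin and collagen IV, had 3 of 7 peaks with every AKO sample below every flox sample (10.3% of all peaks), at introns 9, 10 and 15. The site in intron 9 (48.3 kb) held 72.0, 81.2 and 69.7 normalized reads in flox and 50.7, 53.7 and 50.3 in AKO samples (-0.52 ± 0.13, SE; limma adjusted p = 0.177). The site in intron 10 (50.5 kb) held 238, 213 and 192 in flox and 158, 167 and 159 in AKO samples (-0.40, limma adjusted p = 0.241; edgeR adjusted p = 0.0689; DESeq2 adjusted p = 0.190). The other 4 Nid1 peaks had positive values and overlapped between the genotypes.

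Single sites of other genes completed the lower side. The Lamb1 site at -3.14 kb held 44.9, 58.9 and 56.8 normalized reads in flox and 32.3, 22.8 and 38.5 in AKO samples (-0.78, limma adjusted p = 0.190), and all 5 Lamb1 peaks had negative values. The intron 13 site of Fbn1 (123 kb) held 39.2, 43.4 and 35.3 in flox and 23.1, 26.3 and 23.5 in AKO samples (-0.67, limma adjusted p = 0.151). The Col3a1 site at 44.9 kb, the only inguinal peak assigned to that gene, held 79.1, 81.2 and 67.1 in flox and 53.0, 38.8 and 50.3 in AKO samples (-0.67, limma adjusted p = 0.174; edgeR adjusted p = 0.086). None of these overlapped. The Col14a1 site in intron 1 (11.9 kb) held 31.4, 42.2 and 43.0 in flox and 28.8, 21.7 and 21.4 in AKO samples (-0.67), and the Col6a2 site at -30.5 kb held 37.1, 28.9 and 24.96 in flox and 21.9, 18.3 and 15.0 in AKO samples (-0.69). Both were separated by few reads. The Mmp2 site at -25.9 kb, lower in edgeR with an adjusted p of 0.0671, held 32.1, 12.2 and 52.5 in flox and 20.7, 12.6 and 7.48 in AKO samples, so that the genotypes overlapped and limma gave an adjusted p of 0.396.

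In each tissue 5 of the 6 Loxl1 peaks had negative values, but the separated peaks lay at different places. In iWAT its sites at 17.1, 4.54 and -1.85 kb had every AKO sample below every flox sample, as 10.3% of all peaks did. Their log2 fold changes were -0.52, -0.47 and -0.35 (limma adjusted p from 0.246 to 0.352). Its inguinal start-site peak held 200, 243 and 270 normalized reads in flox and 228, 242 and 203 in AKO samples and overlapped, unlike the start-site peak in brown fat given above.

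At start sites in iWAT, 3 of the 34 matrix peaks had every AKO sample above every flox sample and 1 every AKO sample below, against 9.46% and 9.61% of the 11880 start-site peaks. The 3 were those of Col12a1, Col5a2 and Fbln2, and the 1 was that of Lamb1. The named start-site peaks of Col1a1, Col1a2, Col6a3, Col15a1, Lama4, Hspg2, Eln, Fbn1, Sparc, Lox, Mmp2 and Timp3 all overlapped between the genotypes, with log2 fold changes from -0.16 (Sparc) to 0.35 (Timp3). Mfap5, a microfibril-associated gene with no brown fat peak, had inguinal peaks at -4.84 and -0.10 kb, with 99.8, 84.5 and 72.3 normalized reads in flox and 49.6, 34.3 and 81.3 in AKO samples at the first, which overlapped.

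Marker lists of other cell types also differed between the inguinal pools. The 25 peaks of 6 of 7 fibroblast and progenitor genes (Ly6a without a peak) summed to 2280 to 2481 normalized reads in flox and 2117 to 2271 in AKO samples. The 12 peaks of 4 of 6 endothelial genes (Emcn and Tie1 without a peak) summed to 766 to 855 in flox and 671 to 740 in AKO samples, and the 5 peaks of 4 of 6 macrophage and leukocyte genes (Cd68 and Lyz2 without a peak) to 306 to 362 and 204 to 280. These 3 sums were lower in every AKO sample, while the 14 peaks of 6 of 7 mural genes (Rgs5 without a peak) summed to 813 to 830 in flox and 842 to 891 in AKO samples. The 2 peaks of Upk3b, a mesothelial gene (Krt19 and Msln without a peak), summed to 397 to 471 in flox and 514 to 533 in AKO samples. The 21 peaks of 5 brown adipocyte genes summed to 1209 to 1428 and 1301 to 1426, with 2 peaks below and 4 above (10.3% and 10.6% of all peaks). The sums of brown adipocyte, adipocyte (6 of 6 genes with a peak), skeletal muscle (1 of 5) and Schwann genes (1 of 3) overlapped between the genotypes. The part of these lists in the lower basement membrane peaks and in the higher Eln, Fbln2 and Col18a1 sites was not tested.

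The matrix sites of the tissues coincided in part. Of the brown fat matrix peaks 159 (59.6%) overlapped an inguinal peak by at least 1 bp, and of the inguinal ones 159 (73.6%) overlapped a brown fat peak, compared with 53.8% and 80.5% of all peaks. They formed 160 pairs in which both peaks carried a matrix gene. The genotypes were separated in both tissues in opposite directions at 4 of these pairs (2.50%; 1.47% of all 31936 pairs) and in the same direction at 3 (1.88%; 2.25%). The 4 belonged to Col6a3, Tnxb, Col15a1 and Lamc1 and are taken up at the end. The 3 were a site assigned to Col4a1 at -80.7 kb, which lies in intron 4 of Col4a2 and was lower in both tissues (-0.28 in brown fat and -1.08 in iWAT, the latter a narrow peak of 3.42 to 18.9 normalized reads), a site at 66.9 kb in Nid1, lower in both (-0.29 and -0.38), and a site at 2.29 kb in Col5a3, higher in both (0.22 and 0.45). The tables were normalized separately, and no difference between the tissues was tested.

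**Figure D5:**
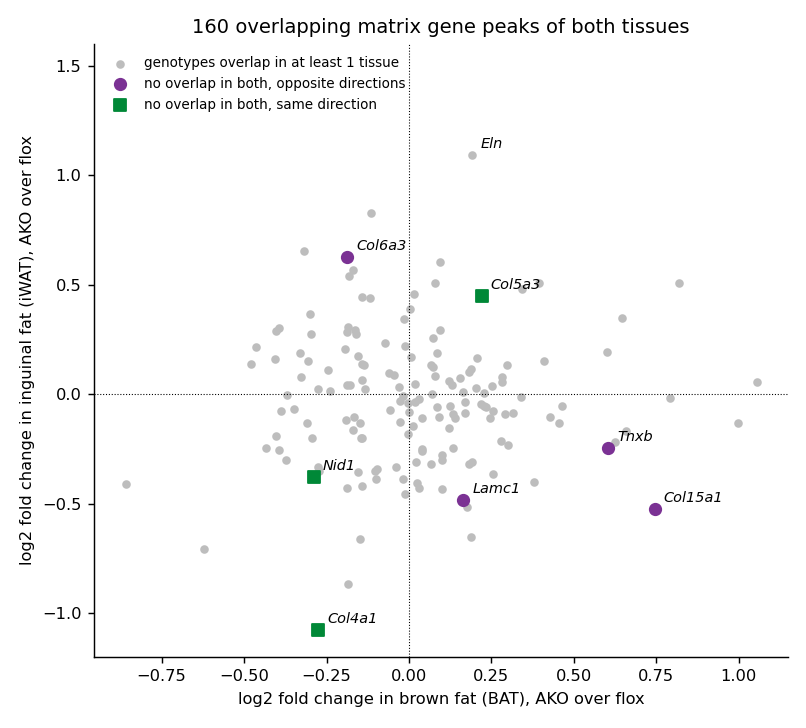
Log2 fold change (AKO over flox) in brown fat (x) and inguinal fat (y) of the 160 overlapping pairs of matrix gene peaks; purple points are the 4 pairs separated in opposite directions, green squares the 3 pairs separated in the same direction, and grey points pairs whose genotypes overlap in at least 1 tissue. The Eln pair stands highest, at 1.09 in iWAT and 0.19 in brown fat.

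Words that transcription factors are known to bind were counted in the central 300 bases of the peaks, on both strands. The AP-1 word TGANTCA occurred in 13.1% of the brown fat and 19.0% of the inguinal matrix peaks, compared with 8.17% and 9.76% of all peaks of the same tables. Among peaks farther than 1 kb from a start site the shares were 14.8% and 20.9%, compared with 9.48% and 12.3%. The TEAD word GGAATG occurred in 21.0% and 19.9% of the matrix peaks, compared with 15.1% and 13.6% of all peaks. Farther than 1 kb from a start site the gap was smaller, with 21.1% and 19.8%, compared with 16.5% and 15.8%. Both words were thus found more often in matrix sites than over the whole tables, in each tissue, without a test.

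The other words stood fewer percentage points from their background over all peaks. The EBF word CCCNNGGGA was found in 12.4% and 9.72% of the matrix peaks (10.7% and 8.97% of all peaks), the C/EBP word TTGCNNAA in 15.4% and 14.8% (14.3% and 12.9%), and the NF1 half-site TTGGCA in 23.6% and 23.1% (23.1% and 19.1%). The PPAR-RXR direct repeat was found in 6.37% and 4.63% (4.83% and 4.25%), and the CTCF core motif in 8.24% and 8.33% (9.14% and 9.69%). Matches may overlap one another, and a match describes the letters of a site and not its occupancy. The median GC content was 52.6% in brown fat and 53.7% in inguinal matrix peaks, compared with 52.7% and 55.0% over all peaks.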

How the data were processed

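Per the labels and the study's methods, the authors mapped ATAC-seq reads to mm10 (BWA 0.7.17-r1188; Picard 2.8.14), called broad peaks (MACS2 2.1.1.20160309), kept autosomal peaks that 2 or more of the 3 samples per genotype shared and that lay outside blacklisted regions, counted reads per peak (bedtools 2.27.1) and divided the counts by DESeq2 1.20.0 size factors. The deposited signal values are these normalized reads per peak, with the gene of the nearest start site assigned by the authors. The deposited columns of the authors' own fold changes and p-values were not used.

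Dividing by the value of 1 read gave whole reads for 100% of values within 0.01. Log2(value + 1) was fitted over all peaks of each table with limma 3.58.1 in R 4.3.3, with PC1 in the brown fat model, and Benjamini-Hochberg adjusted p under 0.1 was the threshold. DESeq2 1.42.0 and edgeR 4.0.16 (quasi-likelihood test) on the recovered reads were alternatives. Scripts were tested on simulated data, where the fits ran without the PC1 covariate, so that the brown fat model with PC1 was not covered. DESeq2 gave no adjusted p where it filtered a peak. An exact test of 3 against 3 samples cannot go below p = 0.1. Replicate numbers do not pair the samples.

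The 42 genes, their role groups and the marker lists were chosen with earlier results of these data known. Named were the 6 peaks per direction and table with the smallest p, start-site peaks of 16 listed genes, peaks called by DESeq2 or edgeR, the genes with most peaks, and opposite pairs. Other peaks were named after their values were seen (Lama4, Loxl1, Lamb1, Timp2 start site, Mfap5). Distances come from GENCODE vM21, since the inguinal table gives none.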

Additional observations from a re-analysis of the deposited data

Results flagged for a closer look

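At 4 overlapping pairs of matrix gene peaks every AKO sample lay on one side of every flox sample in brown fat and on the other side in iWAT, and for each of them the difference between the tissues was not tested, since the tables were normalized separately. The site 109.6 kb from the start of Col6a3, which encodes the α3 chain of collagen VI, held 520, 513 and 501 normalized reads in the brown fat of flox mice against 448, 431 and 435 in that of AKO mice. That brown fat peak spans chr1:90732840-90734611, and the overlapping inguinal peak, chr1:90734196-90734466, is a small part of it. The inguinal peak held 34.9, 33.4 and 19.8 against 35.7, 48.0 and 51.3. Over these unlike widths the log2 fold changes were -0.19 in brown fat and 0.62 in iWAT. The site at 15.3 kb in an exon of Tnxb, whose product tenascin-X organizes collagen fibrils, held 38.7, 62.8 and 58.2 against 92.8, 77.3 and 87.3 in brown fat (flox against AKO) and 149, 158 and 146 against 121, 120 and 141 in iWAT, with log2 fold changes of 0.60 and -0.25.

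The Col15a1 site at -56.3 kb, whose sequence is printed in the report, had brown fat values given there and held 90.5, 81.2 and 83.5 normalized reads in flox iWAT against 48.4, 58.2 and 71.6 in the AKO samples, with log2 fold changes of 0.75 in brown fat and -0.53 in iWAT. The intron 1 site of Lamc1 at 14.96 kb held 44.4, 51.0 and 53.0 against 56.7, 75.3 and 64.3 in brown fat (flox against AKO) and 89.1, 71.2 and 68.9 against 42.6, 60.5 and 60.9 in iWAT, with log2 fold changes of 0.17 and -0.48. None of these 8 values passed the adjusted threshold in limma. The brown fat peaks of Tnxb, Col15a1 and Lamc1 are narrower than the inguinal ones and lie within them, so that the values of a pair cover unlike stretches.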

How the results depend on the processing

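The limma count of 0 called matrix peaks held under every alternative run in both tissues. Over all peaks, limma called only 1, lower in brown fat with a pseudocount of 10. Its smallest adjusted p over all peaks in the main fits was 0.269 in brown fat and 0.149 in iWAT. The 0 for matrix peaks could thus hardly change and is no measure of stability. DESeq2 called 127 lower and 47 higher in brown fat, 303 and 300 without PC1, and 225 and 195 in iWAT, and edgeR called 67 and 17 in brown fat and 996 and 850 in iWAT. Of the matrix peaks, DESeq2 called 1 lower in brown fat (and 1 higher without PC1) and 3 higher in iWAT, and edgeR called 3 lower and 4 higher in iWAT. With 1 sample left out, DESeq2 called 23 to 107 peaks lower and 2 to 198 higher in brown fat, of which matrix peaks were 0 to 1 and 0 to 1, the 198 and the higher matrix peak (Fbln2 at -4.74 kb, adjusted p = 0.0186) without AKO replicate 3. In iWAT it called 4 to 282 lower and 4 to 176 higher, the lowest without flox replicate 1 and the highest without flox replicate 2, with 0 matrix peaks lower and 1 to 2 higher. Limma called 0 matrix peaks in each of these fits.

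With 1 sample left out the separated matrix peaks, which become more numerous by construction, were 51 to 62 below and 31 to 58 above in brown fat and 34 to 50 and 24 to 31 in iWAT. Over all peaks they were 7191 to 9880 below and 6677 to 11592 above of 58558 in brown fat. In iWAT these were 5599 to 7197 and 5607 to 6953 of 39558. With all samples and within 10 kb of a start site, 9 of 65 matrix peaks lay below and 11 above in brown fat, and 6 and 5 of 66 in iWAT. The shares of all peaks within 10 kb were not counted. The median log2 fold change ran from -0.0999 to -0.0175 in brown fat and from -0.103 to -0.0423 in iWAT with 1 sample left out, and was 0.23 in iWAT with PC1 added. With a replicate block the medians were -0.0038 and -0.055 with 0 calls in both tissues. The deviations of same-numbered flox and AKO samples from the mean of their genotype correlated over all peaks at 0.494, 0.063 and -0.236 in brown fat. Fewer than 10 reads in a sample were found at 6 of 267 brown fat matrix peaks (2.25%) and at 9 of 216 inguinal ones (4.17%). Leaving out such peaks kept 57664 of all 58558 peaks in brown fat and 37872 of all 39558 in iWAT.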

Other observations

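Other genes of the matrix and its regulation, outside the 42, held 326 peaks in brown fat (67 genes) and 261 in iWAT (65 genes). In brown fat 33 of these peaks (10.1%; 8.84% of all peaks) had every AKO sample below every flox sample and 32 (9.82%; 8.77%) every AKO sample above, and in iWAT 27 (10.3%; 10.3%) and 25 (9.58%; 10.6%), all near the shares of all peaks. The exonic site of Lamb3, a laminin chain of epithelial basement membranes, at 21.6 kb held 714, 768 and 687 normalized reads in flox mice against 414, 365 and 386 in AKO mice, and both DESeq2 (adjusted p = 0.00253) and edgeR (adjusted p = 0.0332) called it lower, while limma did not (-0.82, adjusted p = 0.436). In iWAT a site assigned to Timp4, a metalloproteinase inhibitor, at -19.9 kb in an intron of Syn2 held 32.8, 24.5 and 29.3 in flox and 53.0, 62.8 and 68.4 in AKO samples, and both DESeq2 (adjusted p = 0.0522) and edgeR (adjusted p = 0.0149) called it higher, while limma did not (1.07, adjusted p = 0.149).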
